A study of Mus musculus with 4 samples.

Results

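The genes of mitochondrial ribosomal proteins (MRPs) were examined in cultured bronchoalveolar stem cells (BASCs) with and without depletion of the transcription factor c-Myc. Members were all probe sets of the array whose platform gene symbol begins with Mrpl or Mrps followed by a digit and which name that gene alone. This gave 156 of the 45,037 probe sets, 104 for proteins named as large subunit (Mrpl) and 52 for proteins named as small subunit (Mrps), and 76 genes, 47 large and 29 small. Of the 156 probe sets, 137 passed a filter on low signal (a mean over the 4 arrays of at least 5.08 on the log2 scale, the 40th percentile of all probe sets), as did 27,022 probe sets of 12,589 genes in all. Every one of the 76 genes kept at least 1 probe set. Of the members' probe sets, the nearest below the filter had a mean of 5.07 and the nearest above it 5.15. A further 4 probe sets were shared with another gene and were not members, and for this reason Mrpl30 and Mrpl53 are not among the 76. Their log2 differences between the groups, -0.01 and 0.03 for Mrpl30 with Gm6238, 0.00 for Mrpl53 with Ccdc142 and 0.12 for Mrps34 with Nme3, were small.

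The mitochondrial ribosome translates the few proteins that the mitochondrial genome encodes, all of them subunits of the respiratory chain complexes and of ATP synthase. Its RNAs come from the mitochondrial genome, whereas all of its proteins are encoded in the nucleus, made in the cytosol and imported. The large subunit joins amino acids and holds the exit tunnel, and the small subunit reads the messenger RNA. Many of the proteins descend from those of the bacterial ribosome, and the others are particular to mitochondria. Myc, which binds E-box DNA with its partner Max, is known in other cells as an activator of many genes of ribosome production and of mitochondria.

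The samples were 2 control arrays and 2 Myc-depleted arrays, all of BASCs of ICR mice aged 4 to 6 weeks. The cells had been sorted from lung as CD31neg, CD45neg, CD34pos and ScaIpos and plated on irradiated mouse embryonic fibroblasts. In the Myc-depleted cells a lentivirus carried a short hairpin RNA against c-Myc, and stable lines were then selected with puromycin. The labels name the other cells only as control and the study calls them wild type. The sources used here do not say whether these had received a control virus or puromycin, so infection and selection cannot be told apart from depletion. Nor is it given which hairpin was used, how many lines or mice stood behind an array, or whether arrays of a group were separate cultures, so a p-value here reflects the scatter of 4 arrays that may be technical repeats. The labelled cell type was checked against the RNA of its markers. The study itself stained protein, and reports SP-C (of Sftpc) and CCA (of Scgb1a1) in most colonies after several passages. Sftpc, Scgb1a1 and Cd34 lay below the filter on average, as did the epithelial genes Cdh1, Krt8, Krt18 and Nkx2-1 and the gated-out markers Pecam1 and Ptprc. Epcam was measured at log2 6.89 and 7.12 on the control arrays and 7.80 and 7.52 on the Myc-depleted arrays, and Aqp5 lay just above the filter. Of the 7 fibroblast genes on the list all were above the filter, among them Col1a2 (log2 14.41 and 14.56 in control, 14.55 and 14.27 in Myc-depleted cells) and Vim. Ly6a, which encodes Sca-1, was not read here. Thy1 was measured at 6.02 and 5.92 on the control arrays and below the filter threshold, at 4.68 and 4.75, on the Myc-depleted arrays. Pdgfra was higher by 1.23 log2 units on the Myc-depleted arrays, and the part of a changed cell mixture in the values below was not tested.

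Myc itself, read by 1 probe set, was measured at log2 9.21 and 9.69 on the control arrays and at 8.35 and 8.50 on the Myc-depleted arrays. The groups did not overlap. The difference of -1.02 ± 0.21 (SE, 2 arrays per group) left 49.2% of the control level, with an unadjusted p of 0.0076 and an adjusted p of 0.36 in limma. Here and below, a difference is Myc-depleted minus control in log2 units, and adjusted p-values are Benjamini-Hochberg values over all 27,022 probe sets tested. Each gene is represented by its tested probe set with the highest mean. In such bulk samples fewer cells of a type and less RNA per cell cannot be told apart.

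Most MRP genes were read slightly lower on the Myc-depleted arrays, and none passed the adjusted test. Of the 76 genes, 53 (69.7%) had a negative difference, against 46.0% of all 12,589 genes tested. The median difference was -0.083 with quartiles of -0.15 and 0.02 (a median ratio of 0.944), while the median over all genes was 0.02. No MRP gene passed the adjusted threshold, as no gene at all did (0% of 12,589 genes), and the smallest adjusted p of a member was 0.44 in limma. At an unadjusted p under 0.05 in limma, 0 MRP genes were lower (5.23% of all genes) and 1 was higher (6.96% of all genes). By the methods' ANOVA, which borrows no variance from other genes, 7 MRP genes (9.21%, against 4.84% of all genes) were lower and 1 (1.32%, against 6.59%) was higher at an unadjusted p under 0.05, and none passed after adjustment. The 2 groups of arrays did not overlap for 29 MRP genes, with 19 lower (25.0%, against 20.8% of all genes) and 10 higher (13.2%, against 26.6%). No member differed by 0.5 or more in either direction, whereas 9.72% of all genes did. The median size of the difference, sign aside, was 0.11 over the members (0.16 over all genes). The median gap between the 2 control arrays was 0.11 and that between the 2 Myc-depleted arrays 0.15 (0.13 and 0.185 over all genes). The first is a difference of means of 2 arrays and scatters less than a gap between single arrays, so these sizes are not directly comparable.

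What these arrays could show is given by the intervals. The 95% confidence interval in limma reached a median of 0.36 to either side of the difference. For 72 of the 76 genes the whole interval lay within 1 log2 unit (2-fold) of no difference, and for 38 genes it lay within 0.5. The widest intervals belonged to Mrps11 and Mrps23, a member particular to mitochondria. Mrps11 was measured at 8.57 and 7.79 in control and 7.79 and 8.44 in Myc-depleted cells, and Mrps23 at 9.56 and 9.08 against 8.82 and 9.65, so that in each the arrays of a group lay far apart. Mrps11, like Mrpl50, Mrps26 and Mrpl20 below, was chosen after its values were seen.

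**Figure D1:**
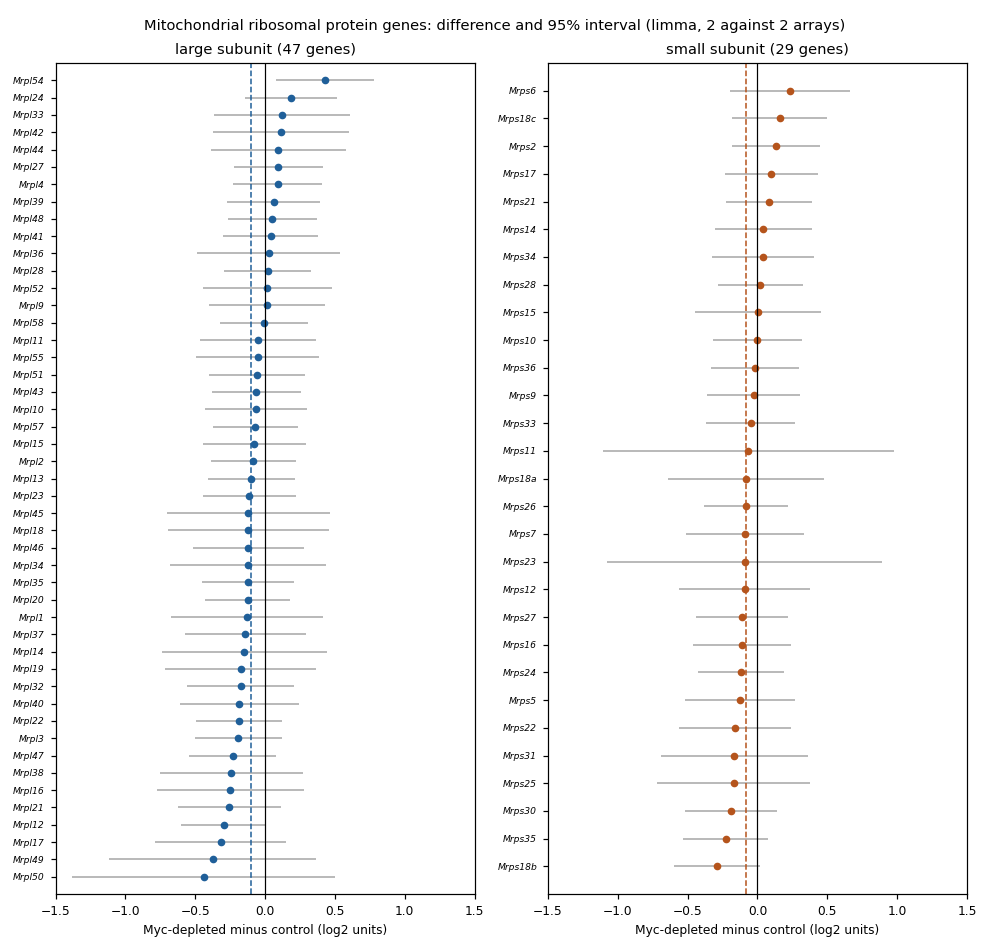
Difference between Myc-depleted and control arrays (log2 units, x axis) for each of the 47 large subunit genes (left) and 29 small subunit genes (right). Points are limma differences of 2 against 2 arrays, grey lines their 95% intervals and dashed lines the medians of -0.098 and -0.081. Mrpl54 was the single gene whose interval did not cross 0.

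The lean toward lower values differed between single arrays. The deviation of an array from a gene's mean over all 4 arrays had a median over the members of 0.068 on control 1, -0.0015 on control 2, -0.11 on Myc-depleted 1 and 0.045 on Myc-depleted 2. Myc-depleted 1 gave the lowest value of the 4 arrays in 46 of the 76 genes (60.5%, against 27.8% of all genes). Myc-depleted 2 was above Myc-depleted 1 in 61 genes (80.3%, against 51.0%), and control 1 was above control 2 in 53 genes (69.7%, against 49.0%). Thus control 1 and Myc-depleted 2 read the members high, and Myc-depleted 1 read them low.

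The single comparisons followed this order. Myc-depleted 1 minus control 1 had a median of -0.15 over the members, with 58 of 76 genes negative, and Myc-depleted 1 minus control 2 one of -0.097. Myc-depleted 2 minus control 1 had a median of -0.058, but Myc-depleted 2 minus control 2 was positive at 0.059, with 28 genes negative. Without Myc-depleted 1 the median difference between the groups was -0.0037 and 39 of 76 genes (51.3%, against 45.7% of all genes) were negative. Without control 1 the median was -0.032 with 45 genes negative, without control 2 it was -0.11 with 57, and without Myc-depleted 2 it was -0.15 with 59.

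The arrays also differed in their controls for labelling and RNA integrity. For the 4 bacterial transcripts dap, lys, phe and thr, which are added to the RNA and report labelling, the signal at the 3′ end exceeded that at the 5′ end by a mean of 1.62 log2 units on control 1, 3.01 on control 2, 3.67 on Myc-depleted 1 and 1.50 on Myc-depleted 2. For transcripts of the cells themselves, the corresponding values were -0.13, 0.31, 0.87 and -0.11 for Gapdh and 0.60, 1.36, 1.95 and 0.69 for beta-actin. Control 1 and Myc-depleted 2, where the members were read high, had the smaller 3′ excess in all of these, and Myc-depleted 1 had the largest. The part of this excess in the members' values was not tested.

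**Figure D2:**
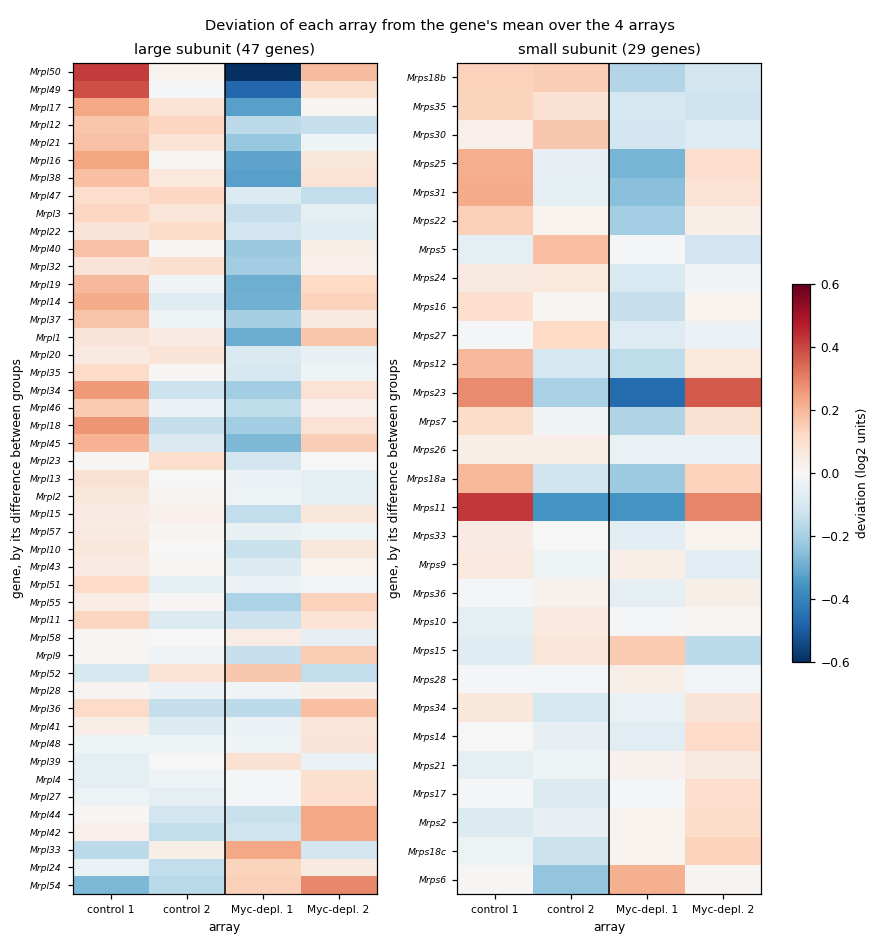
Deviation of each array (columns) from the gene's mean over the 4 arrays (log2 units, colour) for the 47 large and 29 small subunit genes (rows, ordered by difference, lowest on top; colours saturate at 0.6 to either side). A column of blue stands over Myc-depleted 1, the lowest array for 46 of the 76 genes, whereas Myc-depleted 2 is mixed.

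Large and small subunit genes had similar medians. Of the 47 large subunit genes 33 were negative with a median of -0.098 (quartiles -0.17 and 0.02), and of the 29 small subunit genes 20 were negative with a median of -0.081 (quartiles -0.12 and 0.02). The groups did not overlap for 13 large subunit genes that were lower (27.7%) and 5 that were higher (10.6%). For small subunit genes these counts were 6 (20.7%) and 5 (17.2%). The shares over all genes were 20.8% lower and 26.6% higher. The large minus small difference of the medians was -0.017. On single arrays the large subunit's median deviation exceeded that of the small by 0.031 on control 1, 0.023 on control 2 and 0.019 on Myc-depleted 2, and the gap was -0.064 on Myc-depleted 1. The gaps of the 2 Myc-depleted arrays thus lay on opposite sides of 0. Structures of the mitochondrial ribosome place the products of Mrps30 and Mrps18a in the large subunit and do not hold Mrps36, which belongs to the 2-oxoglutarate dehydrogenase complex. With these genes moved or left out, the medians were -0.098 over 49 large and -0.073 over 26 small subunit genes.

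Members were also split by origin. The 45 genes with a counterpart in the bacterial ribosome had a median of -0.089 with 31 negative, and the 31 genes particular to mitochondria one of -0.069 with 22 negative. Within the large subunit, the 28 genes with a bacterial counterpart had a median of -0.12, with 12 (42.9%) lower and 3 (10.7%) higher without overlap of the groups. The 19 particular to mitochondria had a median of -0.056, with 1 (5.26%) lower and 2 (10.5%) higher. The shares over all genes were 20.8% and 26.6%, and the difference between these lists was not tested. In the small subunit the order was turned, with -0.028 over 17 genes and -0.10 over 12 genes. Myc-depleted 1 was the lowest array in 20 of the 28 large subunit genes with a bacterial counterpart.

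Among the large subunit genes, Mrpl54, a protein particular to mitochondria, had the smallest p. It was measured at 8.73 and 8.84 in control and at 9.14 and 9.28 in Myc-depleted cells, higher on both Myc-depleted arrays. The difference was 0.43 with an interval of 0.08 to 0.78 (fold 1.35; unadjusted p = 0.027, adjusted p = 0.44 in limma). A second probe set of Mrpl54 lay below the filter. Mrpl12, a protein of the stalk that meets translation factors, was measured at 10.23 and 10.19 against 9.90 and 9.92, so that it was lower on both Myc-depleted arrays and the arrays of each group lay close together. Its difference was -0.30 with an interval of -0.60 to 0.01 (adjusted p = 0.51 in limma). Mrpl47 was measured at 8.62 and 8.64 against 8.43 and 8.37, a difference of -0.23. Mrpl22, which lines the exit tunnel, was measured at 9.98 and 10.01 against 9.78 and 9.83, a difference of -0.19. Mrpl3, a core protein next to the peptidyl transferase centre, was measured at 10.97 and 10.92 against 10.71 and 10.79, a difference of -0.19. In all 4 of these the groups stood apart by more than the arrays of a group differed, without passing the adjusted test.

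Other large subunit genes differed mainly on Myc-depleted 1. Mrpl17 was measured at 10.57 and 10.42 in control and at 10.01 and 10.35 in Myc-depleted cells, a difference of -0.32. Mrpl21 was measured at 9.49 and 9.39 against 9.08 and 9.28, a difference of -0.26. Mrpl49 was measured at 9.43 and 9.03 against 8.57 and 9.14, and Myc-depleted 2 lay between the controls. Mrpl16 was measured at 10.41 and 10.18 against 9.85 and 10.24, again with Myc-depleted 2 between the controls. Mrpl50, with the lowest difference of all members at -0.44, was measured at 8.91 and 8.52 against 7.87 and 8.68, and its interval ran from -1.38 to 0.50. A second tested probe set of Mrpl50, with a lower mean, gave a difference of only -0.12. Of the 14 large subunit genes with a difference above 0, the largest after Mrpl54 were Mrpl24, near the tunnel exit, measured at 10.71 and 10.60 against 10.88 and 10.80 (0.18, groups not overlapping), and Mrpl33, measured at 9.32 and 9.51 against 9.71 and 9.36 (0.12, groups overlapping). Of the remaining proteins of the stalk and its base, Mrpl10 differed by -0.07 and Mrpl11 by -0.05, less than Mrpl12. Of those at the tunnel exit, Mrpl23 differed by -0.11 and Mrpl45, which ties the ribosome to the inner membrane, by -0.12.

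Among the small subunit genes, Mrps18b stood first. It was measured at 10.03 and 10.04 in control and at 9.72 and 9.78 in Myc-depleted cells, a difference of -0.29 with an interval of -0.60 to 0.02 (adjusted p = 0.52 in limma). Of its paralogs, Mrps18c was measured at 10.62 and 10.52 against 10.67 and 10.79 (0.16) and Mrps18a at 9.20 and 8.88 against 8.78 and 9.14 (-0.08). The groups did not overlap in opposite directions for Mrps18b and Mrps18c, and the difference between the paralogs was not tested. Mrps35, particular to mitochondria, was measured at 8.76 and 8.72 against 8.52 and 8.51, a difference of -0.23. Mrps30 was measured at 9.60 and 9.74 against 9.46 and 9.49, a difference of -0.19. Both were lower on the 2 Myc-depleted arrays.

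The other small subunit genes with the smallest p lay on either side. Mrps6 was measured at 11.57 and 11.33 against 11.78 and 11.58, a difference of 0.23 through a probe set that may bind transcripts of related sequence. Mrps2 was measured at 9.94 and 9.97 against 10.04 and 10.13, a difference of 0.13. Mrps22 was measured at 9.94 and 9.82 against 9.60 and 9.84, a difference of -0.16 in which the groups overlapped. Mrps24, at the entry of the messenger RNA, differed by -0.12, Mrps27 by -0.11 and Mrps16 by -0.11, and Mrps12, of the decoding centre, by -0.09. By the methods' ANOVA the smallest p of all members was that of Mrps26 (unadjusted p = 0.00061), with 9.96 and 9.97 against 9.89 and 9.88, a difference of -0.08, and Mrpl20 also had an unadjusted p under 0.05 by that test.

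Several genes were read by more than 1 probe set, and these often disagreed in sign. Of the 76 genes, 34 had more than 1 tested probe set, which gave 61 further probe sets, 43 for large and 18 for small subunit genes. Of these, 28 had the opposite sign from the chosen probe set, in 19 genes (Mrpl1, Mrpl3, Mrpl9, Mrpl11, Mrpl15, Mrpl17, Mrpl21, Mrpl28, Mrpl34, Mrpl35, Mrpl44, Mrpl47, Mrpl52, Mrps2, Mrps5, Mrps9, Mrps23, Mrps24 and Mrps25). None lay more than 0.5 from it. The largest gap was in Mrpl17, with 0.11 against -0.32, followed by Mrps5, with 0.30 against -0.12, and Mrps2, with -0.27 against 0.13. Of the 137 tested probe sets of the members, 2 (1.46%, against 10.1% of all probe sets) had an unadjusted p under 0.05 in limma, that of Mrpl54 and a dim one of Mrpl15 (-0.39), whose chosen probe set gave -0.08. With the mean of a gene's tested probe sets the median difference was -0.058 with 49 genes negative, and with the dimmest tested probe set -0.049 with 45 negative.

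**Figure D3:**
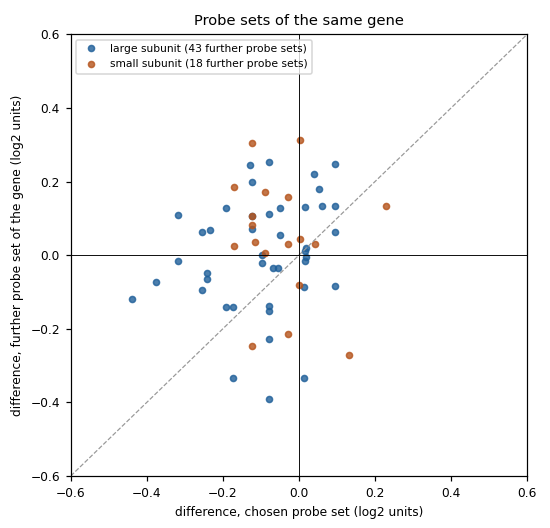
Difference between Myc-depleted and control arrays (log2 units) of the chosen probe set of a gene (x axis) against each of its further tested probe sets (y axis; 43 for large and 18 for small subunit genes). The dashed line marks equal values, and 28 of the 61 points lie in the quadrants of opposite sign.

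Among genes that work with the mitochondrial ribosome, the medians of most lists lay near that of all genes. Of the ribosomal proteins that carry other names, 4 were tested and all had negative differences, at -0.33 for Ptcd3, -0.26 for Chchd1, -0.02 for Gadd45gip1 and -0.02 for Dap3. The 12 mitochondrial translation factors had a median of 0.02 with 5 negative, and 2 of them had an unadjusted p under 0.05 in limma with higher values, the release factor Mtrf1l (7.61 and 7.43 against 8.15 and 8.14, a difference of 0.63) and the initiation factor Mtif3 (6.69 and 6.72 against 7.02 and 7.37, a difference of 0.49). The elongation factors Tufm, at -0.12, and Gfm1, at -0.27, were below 0. The 22 genes of ribosome assembly and ribosomal RNA modification had a median of -0.01 with 11 negative, from -0.32 for Fastkd2 to 0.31 for the methyltransferase Mrm1. The 16 mitochondrial aminoacyl-tRNA synthetases had a median of 0.00 with 8 negative. None of these genes passed the adjusted threshold, as for all 12,589 genes.

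Cytosolic ribosomal proteins and growth markers were read beside the members. The 45 tested genes of cytosolic ribosomal proteins had a median difference of 0.01 with quartiles of -0.02 and 0.05, and Myc-depleted 1 was their lowest array in 10 genes. Their median control level was log2 13.94, close to the highest value on any array (14.63). All 9 cell division markers had negative differences with a median of -0.62, among them Bub1 (10.36 and 10.10 against 9.44 and 9.20) and Top2a (11.27 and 11.13 against 10.60 and 10.45), each with an unadjusted p under 0.05 and adjusted p-values of 0.34 and 0.35 in limma. Their median deviations were 0.44, 0.13, -0.39 and -0.08 on control 1, control 2, Myc-depleted 1 and Myc-depleted 2. By these medians the lowest array was the same as for the members. Of the 9 markers, 6 were lowest on Myc-depleted 1 and 3, with Bub1 and Top2a among them, on Myc-depleted 2. The part of cell division in the members' values was not tested.

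**Figure D4:**
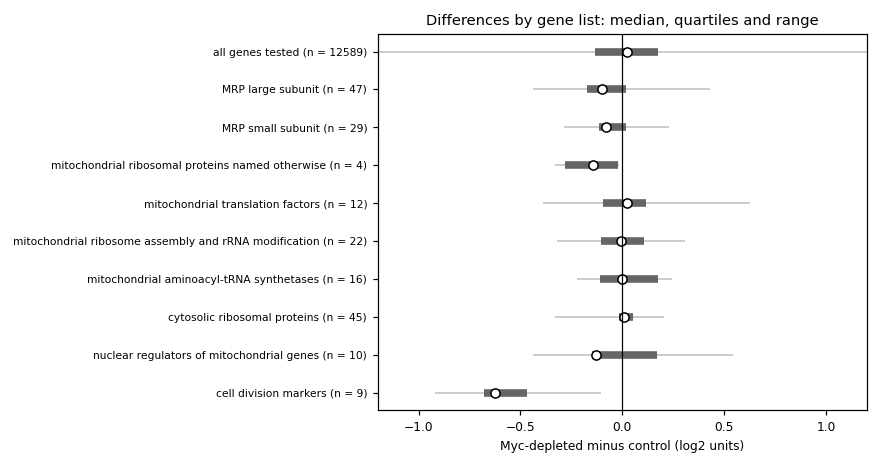
Difference between Myc-depleted and control arrays (log2 units, x axis) by gene list. Circles are medians, thick bars run between the quartiles and thin lines over the whole range, which for all 12,589 genes runs beyond the axis. Both MRP subunits lie slightly below 0, and the cell division markers lie lowest.

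Regulators of genes for mitochondrial proteins, some of them acting on mitochondrial DNA, were read in the same cells. Of 10 tested, 7 had negative differences. Polrmt, the mitochondrial RNA polymerase, was measured at 8.54 and 8.45 in control and 8.89 and 9.19 in Myc-depleted cells (0.54, unadjusted p = 0.025 in limma). Pprc1, a coactivator of the same family as PGC-1alpha, was measured at 10.46 and 10.43 against 10.11 and 9.90 (-0.44, unadjusted p = 0.030 in limma). Tfam, which packs and activates mitochondrial DNA, was measured at 9.27 and 9.27 against 9.44 and 9.60 (0.25). Nrf1 differed by -0.14, Gabpa by -0.06 and Yy1 by -0.12, each with an interval that crossed 0.

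Promoter sequences were searched for the motifs of Myc and of 3 of these regulators. RefSeq windows from 250 bases before to 50 bases after each annotated start (mouse build GRCm38.p6) were at hand for 67 of the 76 genes, 41 large and 26 small, and a gene with several starts counted once if any window matched. Mrpl54 and Mrps35 had no window. The motifs, on both strands, were the E-box CACGTG, which Myc binds, the Nrf1 core TGCGCA, the Ets motif CCGGAAG, to which Gabpa binds, and the Yy1 motif AAGATGGC. The first and the second read alike on both strands, and matches of different motifs may overlap. An E-box was found in 5 of the 67 genes (7.46%), against 11.6% of the 9793 tested genes with a window and 8.91% of all 17,492 coding genes. An Nrf1 core was found in 21 members (31.3%, against 15.6% and 11%), an Ets motif in 25 (37.3%, against 19.4% and 12.95%) and a Yy1 motif in 12 (17.9%, against 5.18% and 3.57%). A match is a description of letters and was not tested as a binding site.

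**Figure D5:**
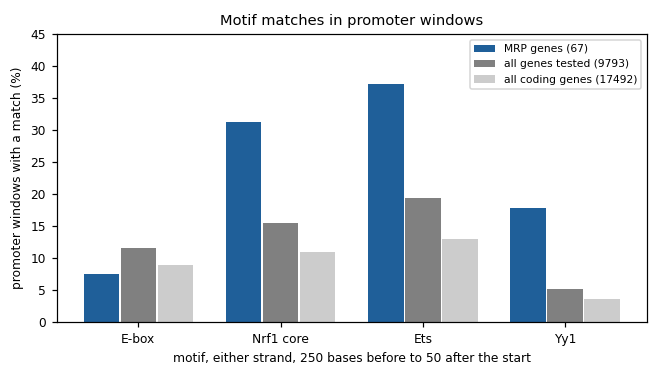
Share of genes with a motif match in their promoter windows (percent, y axis, from 0) for the 67 MRP genes, the 9793 genes tested and all 17,492 coding genes. The Nrf1, Ets and Yy1 bars of the MRP genes are the tallest of their groups, while the E-box bar of the MRP genes, at 7.46%, is the lowest of its group.

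The differences were then set beside the motifs, as a description. Genes with an E-box had a median difference of -0.085, with 3 of 5 negative, and the 62 genes without a match one of -0.085, with 45 negative. Medians with and without a match were -0.081 and -0.088 for the Nrf1 core, -0.081 and -0.087 for Ets and -0.10 and -0.069 for Yy1. The E-box genes were Mrpl2, Mrpl20, Mrpl36, Mrpl37 and Mrps18c, with differences of -0.08, -0.13, 0.03, -0.14 and 0.16. The E-box of Mrpl2 was a single site that lay 131, 139 or 147 bases before the 3 annotated starts, and that of Mrps18c began 163 bases before the start, next to an Ets motif on the opposite strand.

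The 250 bases before the start are printed for 5 members, to show the E-box genes Mrpl2 and Mrps18c beside Mrps18b, the paralog that was read lower, Mrpl12, the lower member with the smallest p, and Mrpl22, in which an Ets motif and an Nrf1 core stand near the start. All run 5′ to 3′ in the direction of the gene, with every match to a searched motif in capitals, and Mrpl12 has none in these bases. The positions are chr17:46645971-46646220 (plus strand, the first of 3 starts) for Mrpl2, chr5:100798509-100798758 (plus strand) for Mrps18c, chr17:35916441-35916690 (minus strand) for Mrps18b, chr11:120484387-120484636 (plus strand) for Mrpl12 and chr11:58171414-58171663 (plus strand) for Mrpl22.
Mrpl2: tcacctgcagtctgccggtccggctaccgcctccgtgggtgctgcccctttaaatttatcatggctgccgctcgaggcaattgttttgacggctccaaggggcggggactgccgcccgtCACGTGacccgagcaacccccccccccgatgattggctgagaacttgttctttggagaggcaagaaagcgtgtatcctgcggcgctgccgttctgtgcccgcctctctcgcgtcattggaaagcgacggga
Mrps18c: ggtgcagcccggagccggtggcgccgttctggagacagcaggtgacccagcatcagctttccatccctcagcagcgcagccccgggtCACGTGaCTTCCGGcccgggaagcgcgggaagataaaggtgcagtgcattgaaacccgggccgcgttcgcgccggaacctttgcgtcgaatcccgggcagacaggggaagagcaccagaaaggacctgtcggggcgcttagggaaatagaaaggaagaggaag
Mrps18b: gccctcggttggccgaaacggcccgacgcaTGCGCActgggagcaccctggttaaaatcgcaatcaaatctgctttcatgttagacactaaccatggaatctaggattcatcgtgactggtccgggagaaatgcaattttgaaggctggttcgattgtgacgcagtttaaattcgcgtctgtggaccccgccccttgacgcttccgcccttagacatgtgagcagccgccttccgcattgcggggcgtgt
Mrpl12: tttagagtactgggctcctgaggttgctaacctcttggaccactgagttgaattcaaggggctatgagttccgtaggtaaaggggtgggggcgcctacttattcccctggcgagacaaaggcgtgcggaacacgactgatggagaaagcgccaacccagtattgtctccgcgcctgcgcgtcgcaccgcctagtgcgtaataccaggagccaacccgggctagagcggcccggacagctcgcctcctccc
Mrpl22: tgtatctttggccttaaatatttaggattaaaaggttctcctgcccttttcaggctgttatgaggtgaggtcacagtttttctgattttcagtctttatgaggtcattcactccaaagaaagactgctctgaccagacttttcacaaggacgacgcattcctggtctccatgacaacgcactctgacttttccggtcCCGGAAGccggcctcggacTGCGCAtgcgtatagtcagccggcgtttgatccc
In these letters Mrps18b held an Nrf1 core far from the start and no E-box (a second Nrf1 core and an Ets motif lay after the start, 31 and 43 bases from it), and Mrpl22 an Ets motif and an Nrf1 core within 53 bases of it.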

How the data were processed

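Total RNA of 2 control and 2 Myc-depleted BASC samples was read on single-colour Affymetrix mouse arrays. The deposited log2 values were used as the authors made them. Their methods name Robust Multichip Average in Partek Genomics Suite 6.4, whereas the submitters' processing notes name Partek 6.4 and GCRMA, which treats low signals differently. Which was used was not settled. Gene symbols came from the platform annotation. All 76 member genes matched RefSeq by Entrez identifier. Probe sets with a mean under the 40th percentile were left out, and lmFit and eBayes of limma 3.58.1 (R 4.3.3) were fitted over the other 27,022 (2 residual degrees of freedom, prior of 2.02). The script was checked on simulated data. The methods' ANOVA was an alternative, as were other filters, scalings, variance models, probe set choices, a replicate block and each array left out. Members and lists were chosen with earlier results of these data known. Named genes were Myc, the 10 genes of each subunit with the smallest p, up to 3 of each with the largest positive difference, those with probe sets that disagree, and members with known roles. The number of arrays limits the precision, and array signals carry no count of molecules.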

Additional observations from a re-analysis of the deposited data

How the results depend on the processing

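Where no array was left out, no alternative called a member at an adjusted p under 0.05. The median difference of all members then stayed between -0.085 and -0.049. Of all genes, 22 (0.17%) were called with the mean of all probe sets and 12 (0.095%) with the crossed pairing described below. The other alternatives without an array left out called none. With shares this low, the lack of called members does not set them apart from all genes. The count of MRP genes lower at an unadjusted p under 0.05, 0 as reported, was 7 by the methods' ANOVA, 2 without a filter, with an eBayes trend or with the mean of all probe sets, 1 with a floor or with the probe set of lowest mean, and 0 to 3 with an array left out. Among all genes, the share lower was 4.65% without a filter, 5.53% with the trend and 6.3% with the mean, against 2.63% of members in each. It was 5.32% with the floor and 4.28% with the probe set of lowest mean, against 1.32% of members in each. By the methods' ANOVA the members' share was the larger, at 9.21% against 4.84%. The count of higher genes, 1 as reported (1.32%, against 6.96% of all genes), was 0 with the replicate block (against 2.7%). With an array left out, 1 group holds a single array, so counts from those fits cannot decide whether the higher gene, Mrpl54, is stable. Its difference in those fits ran from 0.36 to 0.50. Non-overlap of the groups in place of the p gave 19 lower (25.0%, against 20.8% of all genes) and 10 higher (13.2%, against 26.6%). The median difference of the small subunit ran from -0.094 to 0.011 with an array left out, highest without Myc-depleted 1. Large minus small ran from -0.073 to -0.020 with an array left out and was 0.030 with the probe set of lowest mean. Under the alternatives the differences of 37 members were followed. Among these, with the probe set of lowest mean, Mrpl3 (0.13), Mrpl11 (0.13), Mrpl17 (0.11), Mrpl21 (0.064), Mrpl47 (0.070), Mrps2 (-0.27), Mrps5 (0.11), Mrps23 (0.17) and Mrps24 (0.036) changed sign. Mrpl11 (0.044), Mrps2 (-0.070), Mrps5 (0.024) and Mrps23 (0.030) did so with the mean of all probe sets. So did Mrpl1, Mrpl9, Mrpl35 and Mrps25, which were not followed. Of the members not followed, Mrpl1 (0.25), Mrpl9 (-0.33), Mrpl28 (-0.0035), Mrpl34 (0.072), Mrpl35 (0.20), Mrpl44 (-0.085) and Mrps25 (0.19) also changed sign with the probe set of lowest mean. With an array left out, the difference of Mrpl10 ran from -0.17 to 0.036, Mrpl11 from -0.16 to 0.054, Mrpl15 from -0.19 to 0.030, Mrpl33 from -0.051 to 0.29, Mrpl36 from -0.14 to 0.20, Mrpl45 from -0.33 to 0.088, Mrps11 from -0.46 to 0.33, Mrps12 from -0.24 to 0.058, Mrps18a from -0.26 to 0.099 and Mrps23 from -0.50 to 0.32. The cause was not tested.

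Same-numbered arrays deviated from their group means in opposite directions (correlation of -0.77). The labels do not say whether same-numbered arrays were paired cultures, and the correlation of signals cannot decide it. With the replicate block 0 probe sets were called, and with the crossed pairing, chosen after seeing the data, 21 probe sets were called and 5 MRP genes (6.58%, against 9.70% of all genes) were lower at an unadjusted p under 0.05. Of 592 values under alternatives, for the 37 members whose difference was followed, 562 kept their direction and 30 changed it. The other filters, the floor, the variance models, the methods' ANOVA and the replicate block could not change these differences. Nor could a choice of probe set for genes with 1 tested probe set, 42 of the 76. Much of the count of 562 was thus fixed in advance and is no measure of stability.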
